A study of Mus musculus with 8 samples.

Results

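The natriuretic peptide system was followed in mouse gastrocnemius (GAS) muscle through 7 genes: the ligand genes *Ostn*, *Nppa*, *Nppb* and *Nppc*, and the receptor genes *Npr1*, *Npr2* and *Npr3*. The members were found by gene symbol, and all 7 of 7 sought were present, each with 1 probe set, among 22206 probe sets that carry 21980 different symbol entries. A probe set is the group of short probes that measures a gene on a Clariom S Mouse array. The set was chosen on measured values, because *Ostn* has the lowest MYTHO-KD minus scramble difference of the table. The differences of the members are therefore given as a description and without a test.

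The study asked what changes in muscle when MYTHO is depleted. All animals were male C57/Bl6j mice, injected intramuscularly at about 10 weeks of age and examined at 22 weeks of age, 12 weeks (3 months) after injection. In the MYTHO-KD group (4 arrays), the muscle had received an adeno-associated virus (AAV) that carries a short hairpin RNA (sh-RNA) against the product of *D230025D16Rik*, the gene that encodes MYTHO. In the scramble group (4 arrays, labelled AAV sh-RNA scrmb), the contralateral muscle had received an AAV with a scramble sh-RNA. Both groups thus carried an AAV of serotype 1 and an sh-RNA driven by the U6 promoter, which is not specific to a cell type, so the hairpin was not limited by its promoter to muscle fibres. Both hindlimbs of an animal share its circulation, and no uninjected muscle is among the groups. The values are the authors' group averages and standard deviations (SDs) of the log2 signal. No value of a single array was used here, so legs could not be paired and no array could be left out.

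Natriuretic peptides are secreted signals that bind receptors on the cell surface. The receptors encoded by *Npr1* and *Npr2* carry a guanylyl cyclase that makes the messenger cGMP inside the cell, whereas the receptor encoded by *Npr3* lacks this cyclase, removes the peptides from the extracellular fluid and couples to inhibitory G proteins. *Ostn* encodes osteocrin, also called musclin, a peptide secreted by muscle and bone that binds the clearance receptor and can thereby leave more natriuretic peptide for the other receptors.

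The targeted gene was checked first. *D230025D16Rik* averaged 10.02 (SD 0.37) in scramble and 7.71 (SD 0.66) in MYTHO-KD on the log2 scale, a difference of -2.31 (standard error 0.304, adjusted p = 0.0138, limma). The signal in MYTHO-KD was 20.2% of that in scramble. The adjusted p was 0.173 with no moderation of the variances and 0.363 with unequal variances. Over all probe sets the median difference was -0.01, the quartiles were -0.19 and 0.17, and 98.8% of probe sets differed by less than 1 log2 unit. The muscle fibre markers *Acta1*, *Ckm*, *Tnnt3*, *Pvalb*, *Mylpf*, *Ttn* and *Casq1* had scramble averages between 17.85 and 19.93, which is the top of the scale. Signals of different probe sets are not compared with each other below, since probes differ in how strongly they bind.

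Among the ligand genes, *Ostn* lies on chromosome 16 from 27307489 to 27351212 (mm10, plus strand). Its average was 14.87 (SD 0.37) in scramble and 11.75 (SD 0.79) in MYTHO-KD (log2, n = 4 each). The difference was -3.12 with a standard error of 0.341, so that the MYTHO-KD signal was 11.5% of the scramble signal, with 9.08% and 14.6% at 1 standard error to either side. Expressed as a ratio, the signal was 8.69-fold lower. The difference was 3.95 times the larger SD and 8.43 times the SD of the scramble group.

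For *Ostn*, the MYTHO-KD muscles also differed more among themselves. The SD of *Ostn* in MYTHO-KD was 2.14 times that in scramble and was higher than the SD of 98.6% of probe sets in that group, whereas its SD in scramble was higher than that of 71.8%. The ratio of SDs was similar for *Npr1* (2.25) and *Npr2* (2.0), and the difference in spread was not tested. In a group of 4, no value can lie further than 1.5 SDs from the plain mean. If the authors' averages are plain means, the scramble arrays therefore lay between 14.32 and 15.42 and the MYTHO-KD arrays between 10.56 and 12.94, and the groups did not overlap for *Ostn*. This bound was worked out after the form of the table was known.

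*Nppa*, which encodes atrial natriuretic peptide, a hormone of the heart atria, lies on chromosome 4 from 148000722 to 148002079 (plus strand). It averaged 4.89 (SD 0.40) in scramble and 4.79 (SD 0.13) in MYTHO-KD, a difference of -0.10 (standard error 0.206). *Nppb*, which encodes B-type natriuretic peptide, a further cardiac hormone, lies on the same strand from 147985788 to 147987205, and its end is 13517 bases before the start of *Nppa*. It averaged 5.20 (SD 0.39) in scramble and 4.67 (SD 0.21) in MYTHO-KD, a difference of -0.53 (standard error 0.212), or 69.3% of the scramble signal. The possible ranges of the groups overlapped for both genes. Both probe sets had a mean under 5.715, the 30th percentile of all probe sets, so they are dim and a fall could be hidden by the background.

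*Nppc* encodes C-type natriuretic peptide, the ligand of the receptor encoded by *Npr2*, and lies on chromosome 1 from 86666293 to 86670573 (minus strand). It averaged 5.85 (SD 0.43) in scramble and 5.72 (SD 0.03) in MYTHO-KD, a difference of -0.13 (standard error 0.208). Its spread ran opposite to that of *Ostn*, with an SD in MYTHO-KD that was 0.0698 times that in scramble. The scramble arrays could lie anywhere from 5.20 to 6.49, a range that holds all possible MYTHO-KD values, from 5.68 to 5.76.

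**Figure D1:**
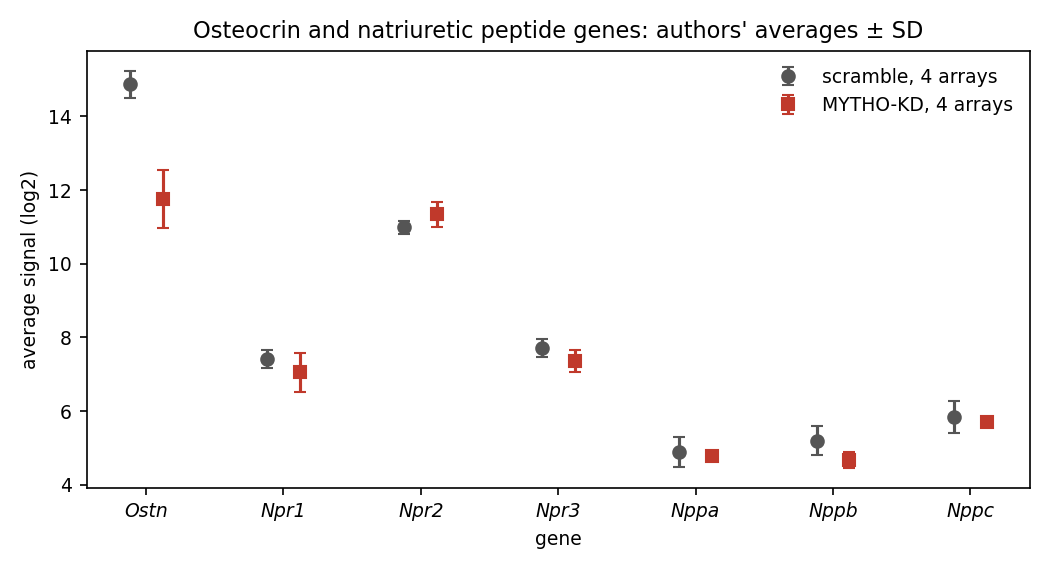
Averages of the 7 genes in scramble and MYTHO-KD muscles (log2 signal, points) with the authors' SDs (bars, n = 4 arrays per group). *Ostn* stands at 14.87 in scramble and 11.75 in MYTHO-KD, while no other gene differs by more than 0.53.

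Among the receptor genes, *Npr1* encodes the receptor for the peptides of *Nppa* and *Nppb* and lies on chromosome 3 from 90450591 to 90465866 (minus strand). It averaged 7.41 (SD 0.24) in scramble and 7.05 (SD 0.54) in MYTHO-KD, a difference of -0.36 (standard error 0.253) that was 0.667 times the larger SD. *Npr2*, the receptor for C-type natriuretic peptide, lies on chromosome 4 from 43631935 to 43651244 (plus strand) and was the 1 member with a higher average in MYTHO-KD. It averaged 10.99 (SD 0.17) in scramble and 11.34 (SD 0.34) in MYTHO-KD, a difference of 0.35 (standard error 0.195), or 127% of the scramble signal. This difference was 1.03 times the larger SD.

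*Npr3*, the clearance receptor to which osteocrin binds, lies on chromosome 15 from 11839896 to 11907371 (minus strand). It averaged 7.72 (SD 0.25) in scramble and 7.35 (SD 0.30) in MYTHO-KD, a difference of -0.37 (standard error 0.198). The MYTHO-KD signal was 77.4% of the scramble signal, and the difference was 1.23 times the larger SD. For all 3 receptors the possible ranges of the groups overlapped.

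In all, 6 of the 7 members had a lower average in MYTHO-KD and 1 a higher one, beside 51.4% of all probe sets with a lower average. The median of the 7 differences was -0.36, and the 6 members other than *Ostn* ranged from -0.53 to 0.35. The difference exceeded the larger SD for 4 of the 7, beside 22.9% of all probe sets, a count that rests on the values used for the choice. The SD was larger in MYTHO-KD for 4 of the 7, beside 48.1% of all probe sets. All 7 were marked as expressed in both groups, a mark that 97.3% of probe sets carried in scramble and 96.2% in MYTHO-KD. In absolute size, a difference at least as large as that of *Ostn* was found in 0.0225% of probe sets. The corresponding shares were 8.78% for *Nppb*, 20.6% for *Npr3*, 21.8% for *Npr1*, 22.9% for *Npr2*, 63.6% for *Nppc* and 71.6% for *Nppa*.

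Because the members were chosen on this contrast, they were not counted against thresholds of p, and the shares of all probe sets that pass these thresholds serve the gene lists below. At an unadjusted p under 0.05, 5.52% of all probe sets were lower and 6.48% higher in MYTHO-KD. At 2-fold or more with that p, which is the rule of the study's methods, the shares were 0.257% lower and 0.86% higher. At an adjusted p under 0.05, they were 0.0946% lower and 0.18% higher. The possible ranges of the groups did not overlap in 1.18% of probe sets that were lower and 1.11% that were higher. Among the members this held for *Ostn* alone, from which nothing is read, since the rule used the same values.

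**Figure D2:**
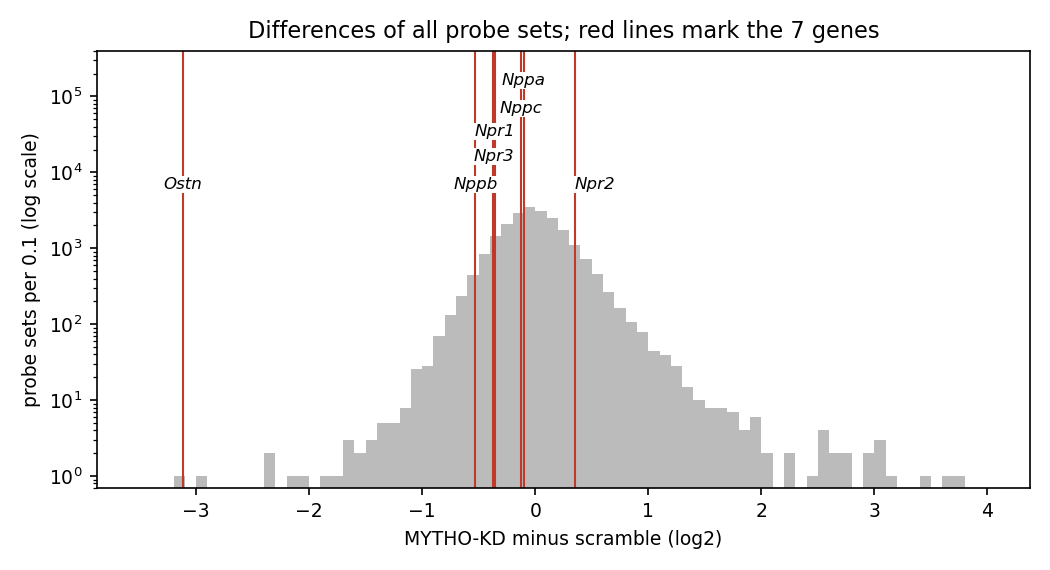
Number of probe sets (log axis) by MYTHO-KD minus scramble difference (log2), with red lines at the 7 genes. The line of *Ostn* stands at the left end, at -3.12, and those of the other 6 genes lie between -0.53 and 0.35.

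The probe sets nearest to *Ostn* in difference were sought among those that name 1 gene and have an unadjusted p under 0.05. With group averages as the only values, likeness rests on 2 numbers per gene and on the same contrast that chose *Ostn*. Because *Ostn* has the lowest difference of all, the nearest could only be the next largest falls, here those ranked 2 to 6. The 5 nearest were *Gm11096* (difference -2.98, standard error 0.657), *D230025D16Rik* (-2.31, standard error 0.304), *Rasd2* (-2.30, standard error 0.539), *Cdk19* (-2.19, standard error 0.324) and *Pfkfb3* (-2.03, standard error 0.350). *Rasd2* encodes a small GTPase, *Cdk19* a kinase of the Mediator complex and *Pfkfb3* an enzyme that controls glycolysis. *Gm11096*, a predicted gene, lay within 0.14 of *Ostn*, but its SDs were 1.60 in scramble and 0.83 in MYTHO-KD. *Cdk19* had an SD of 0.02 in scramble and 0.82 in MYTHO-KD, the latter close to that of *Ostn*.

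The genes around *Ostn* on chromosome 16 were examined to see whether the difference extended along the chromosome. Within 1000 kb, measured between the lower coordinates of the genes, there were 8 other probe sets, with differences from -0.65 to 0.41 and a median of -0.005. The nearest, *Uts2b*, which encodes urotensin 2B, has its lower coordinate 45.8 kb from that of *Ostn* and averaged 5.94 (SD 0.27) in scramble and 5.90 (SD 0.26) in MYTHO-KD. *Ccdc50*, 81.4 kb away, which encodes a coiled-coil protein, averaged 12.24 (SD 0.07) in scramble and 11.59 (SD 0.12) in MYTHO-KD. Its difference of -0.65 (standard error 0.149) had an unadjusted p of 0.000976 and an adjusted p of 0.103 with limma. *Il1rap*, a subunit of the interleukin-1 receptor, differed by 0.41 (standard error 0.185, adjusted p = 0.409, limma). These neighbours are named for their position or, for *Ccdc50* and *Il1rap*, because they alone of the 8 had an unadjusted p under 0.05. Over all probe sets, 6.48% were higher and 5.52% lower at that p. *Cldn16*, *Tmem207* and *Gmnc*, also among the 8, averaged under the dim level of 5.715 in both groups, so a fall of these could be hidden. *Uts2b* and, in scramble, *Il1rap* stood little above that level.

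**Figure D3:**
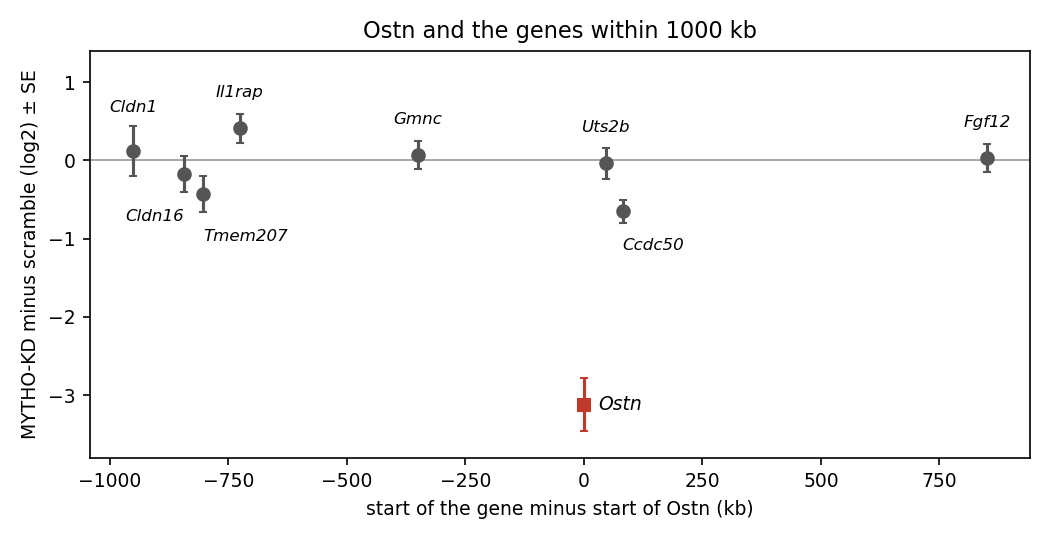
MYTHO-KD minus scramble differences (log2) with standard errors (bars) for *Ostn* (red square) and the 8 other probe sets within 1000 kb of it, against the distance between the lower coordinates of the genes (kb). *Ostn* stands at -3.12 and its neighbours between -0.65 and 0.41.

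Around *Nppa*, 33 probe sets other than those of the members lay within 1000 kb by the same measure. Their differences lay between -1.05 and 0.79 around a median of 0.08. At an unadjusted p under 0.05 (limma), 3 were higher and 1 lower, beside 6.48% and 5.52% of all probe sets. *Clcn6*, a chloride transporter gene next to *Nppa*, differed by -0.40 (standard error 0.197) and did not pass that threshold.

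Genes that act before or after the peptides were described through 7 lists with 71 genes, all measured. Of these, 35 had a higher average in MYTHO-KD, 33 a lower one and 3 an equal one, and the median difference was 0.00, beside -0.01 over all probe sets. At an unadjusted p under 0.05, 8 were higher and 3 lower, beside 6.48% and 5.52% of all probe sets. At 2-fold with that p, 2 were higher and 1 lower, beside 0.86% and 0.257% of all probe sets. None had an adjusted p under 0.05 (limma), which only 0.18% of all probe sets passed as higher and 0.0946% as lower. All 3 genes past 2-fold belong to the list of other muscle-secreted factors. In the other 6 lists together, 53 genes had a median of -0.01, with 3 higher and 1 lower at an unadjusted p under 0.05, which is 4 of 53 beside shares of 6.48% higher and 5.52% lower over all probe sets.

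The peptides are cut from longer precursors by proteases and broken down by others. Of 6 such genes, 1 was higher and 1 lower at an unadjusted p under 0.05, beside 6.48% and 5.52% of all probe sets. *Ide*, which encodes insulin-degrading enzyme, a protease that also cleaves natriuretic peptides, averaged 14.03 (SD 0.15) in scramble and 13.28 (SD 0.11) in MYTHO-KD. Its difference was -0.75 (standard error 0.156, unadjusted p = 0.00044, adjusted p = 0.0771, limma). *Pcsk6*, a protease that activates corin, averaged 8.21 (SD 0.21) in scramble and 8.87 (SD 0.59) in MYTHO-KD, a difference of 0.66 (standard error 0.264, adjusted p = 0.344). *Corin*, the protease that cuts the atrial precursor, differed by -0.19 and *Furin*, a general precursor protease, by 0.06. *Mme*, which encodes neprilysin, the main protease that degrades the peptides, differed by -0.04 and *Dpp4*, a peptidase, by -0.02.

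Among the 9 other guanylyl cyclases, the enzymes besides the receptors that make cGMP, 4 averages were higher and 5 lower, with a median of -0.02 and a range from -0.38 to 0.30. None had an unadjusted p under 0.05 with limma, and the lowest adjusted p was 0.442. *Gucy2g*, a membrane cyclase, averaged 7.62 (SD 0.25) in scramble and 7.24 (SD 0.22) in MYTHO-KD, a difference of -0.38 (standard error 0.184). *Gucy1a1* and *Gucy1b1*, the subunits of the cyclase that senses nitric oxide, differed by 0.30 (standard error 0.198) and 0.03 (standard error 0.190). The former is listed under its earlier symbol *Gucy1a3* in a probe set shared with *Mir7010*.

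Of the 9 cGMP-dependent kinases and effectors, 5 were higher and 4 lower with a median of 0.11. At an unadjusted p under 0.05, 1 was higher, beside 6.48% of all probe sets. This was *Prkg1*, the cGMP-dependent kinase of smooth muscle, with 10.58 (SD 0.48) in scramble and 11.40 (SD 0.55) in MYTHO-KD, a difference of 0.82 (standard error 0.296, adjusted p = 0.297, limma). *Prkg2*, the other kinase of this kind, differed by 0.11 (standard error 0.157). *Rgs2*, a regulator of G protein signaling that the kinase of *Prkg1* acts on, differed by 0.63 (standard error 0.415) with an SD of 1.02 in MYTHO-KD. *Kcnma1*, a potassium channel gene, differed by 0.51 (standard error 0.252) and *Pln*, which encodes the calcium pump inhibitor phospholamban, by -0.57 (standard error 0.371).

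The 10 phosphodiesterases that break down cGMP held the narrowest range of the 7 lists, from -0.15 for *Pde9a* to 0.16 for *Pde1b*, with a median of -0.05. None passed an unadjusted p under 0.05, and the lowest adjusted p was 0.845 (limma). *Pde5a*, the cGMP-specific enzyme, differed by -0.12 (standard error 0.258). The clearance receptor signals through inhibitory G proteins and phospholipase C beta, and of 7 such genes 3 were higher, 3 lower and 1 equal. *Plcb4*, a phospholipase C gene, averaged 10.22 (SD 0.27) in scramble and 10.80 (SD 0.07) in MYTHO-KD, a difference of 0.58 (standard error 0.172, unadjusted p = 0.00574, adjusted p = 0.199, limma). *Gnai2*, an inhibitory G protein gene, differed by 0.33 (standard error 0.187).

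**Figure D4:**
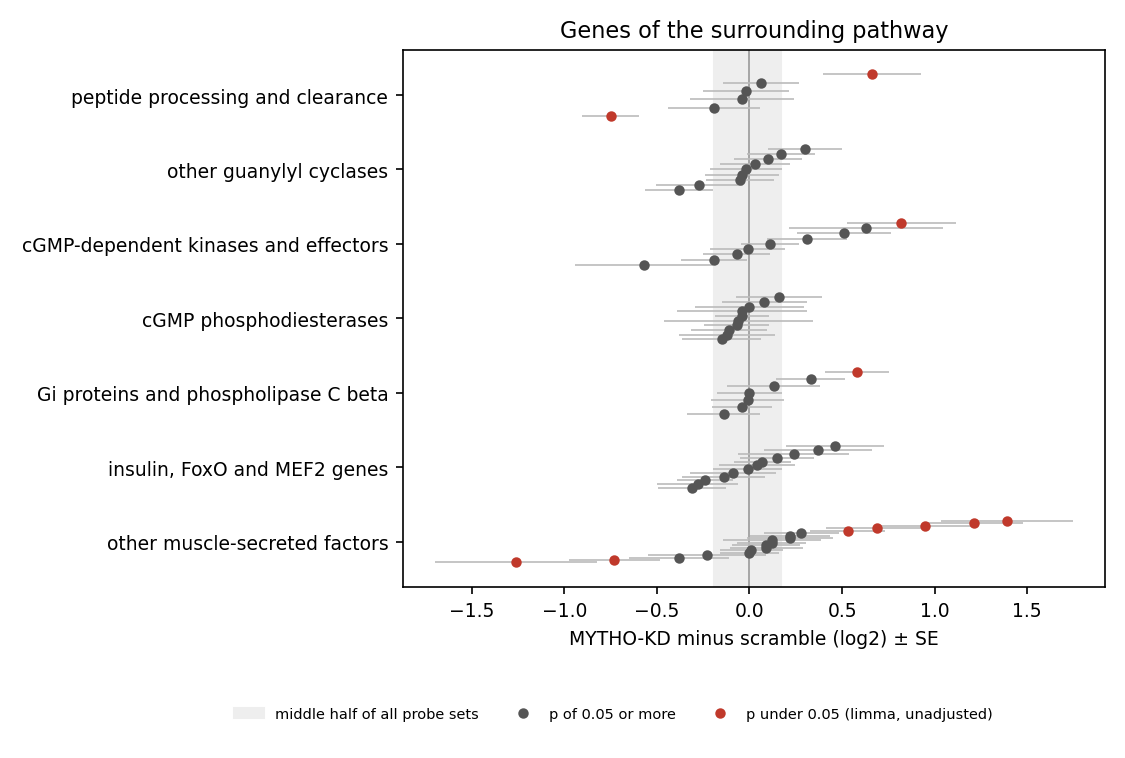
MYTHO-KD minus scramble differences (log2) of the 71 genes in 7 lists of the pathway and of other muscle-secreted factors, 1 point per gene with its standard error (bars), red where the unadjusted p is under 0.05 (limma). The grey band runs from -0.19 to 0.17, the quartiles of all probe sets. Differences beyond 1 log2 unit are seen only in the list of other muscle-secreted factors, from -1.26 to 1.39.

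The expression of *Ostn* in muscle is known to respond to insulin, to FoxO proteins and to activity. Of 12 genes of insulin signaling, FoxO and MEF2 proteins, 6 were higher and 6 lower, with a median of 0.015 and a range from -0.31 to 0.46. None had an unadjusted p under 0.05 with limma, and the lowest adjusted p was 0.535. *Foxo1*, a transcription factor held in check by insulin, averaged 7.05 (SD 0.54) in scramble and 7.51 (SD 0.32) in MYTHO-KD, a difference of 0.46 (standard error 0.264). The related genes *Foxo3* and *Foxo4* had lower averages, with differences of -0.14 (standard error 0.226) and -0.28 (standard error 0.219). *Akt1*, which encodes a kinase between insulin and FoxO proteins, differed by 0.37 (standard error 0.294), and the related *Akt2* by -0.31 (standard error 0.185). *Ppargc1a*, a coactivator of oxidative metabolism, differed by 0.15 (standard error 0.200). Arrays measure RNA, so the activity of these proteins was not measured here. The paper itself reports more phosphorylated AKT protein with MYTHO-KD, from immunoblots of another muscle, the tibialis anterior, at 12 weeks.

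Other factors that muscle secretes were set beside *Ostn*. Of 18 genes, 13 had a higher average, 4 a lower one and 1 an equal one, with a median of 0.12. At an unadjusted p under 0.05, 5 of the 18 were higher and 2 lower, beside 6.48% and 5.52% of all probe sets. These counts were 4 and 1 with no moderation, and 3 and 1 with unequal variances. At 2-fold with that p, 2 rose and 1 fell, beside 0.86% and 0.257% of all probe sets. *Gdf11*, a relative of myostatin, rose from 8.23 (SD 0.67) to 9.62 (SD 0.63), a difference of 1.39 (standard error 0.356, unadjusted p = 0.00216, adjusted p = 0.146, limma). *Il15*, which encodes the cytokine interleukin-15, rose from 8.77 (SD 0.42) to 9.98 (SD 0.48), a difference of 1.21 (standard error 0.267, unadjusted p = 0.000714, adjusted p = 0.0922). *Mstn*, which encodes myostatin, an inhibitor of muscle growth, averaged 13.71 (SD 0.39) in scramble and 12.45 (SD 1.10) in MYTHO-KD, a difference of -1.26 (standard error 0.439, unadjusted p = 0.0142, adjusted p = 0.275). It was no longer past the unadjusted threshold with no moderation or with unequal variances, where its adjusted p was 0.525 and 0.619. The paper itself reports lower *Mstn* RNA in GAS after 12 weeks of MYTHO-KD, measured by RT-qPCR and compared with a paired t test. Like *Ostn*, *Mstn* varied more in MYTHO-KD than in scramble. Of the others past the unadjusted threshold, *Fndc5*, the precursor of irisin, differed by 0.95 (unadjusted p = 0.00414), *Sparc*, a matrix protein, by 0.69 (unadjusted p = 0.0278), *Metrnl*, a secreted relative of meteorin, by 0.53 (unadjusted p = 0.0226) and *Il6*, the cytokine interleukin-6, by -0.73 (unadjusted p = 0.0119, limma). None of these had an adjusted p under 0.05. The signal of *Il6* was dim, 5.91 in scramble and 5.18 in MYTHO-KD. Without the dimmest 30% of probe sets, *Il6* was left out and 1 factor was lower at the unadjusted threshold. The stress signals *Fgf21* and *Gdf15* differed by 0.01 and 0.00, with averages below the dim level of 5.715 in both groups.

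In whole muscle, fewer cells of a type and less RNA per cell cannot be told apart, so the markers of cell types are given beside the members. Osteocrin is made by muscle fibres in this tissue, and of 7 fibre markers 1 was higher, 5 lower and 1 equal, with a median of -0.05 and a range from -0.27 to 0.05. None passed an unadjusted p under 0.05 with limma. *Acta1* stood at 19.93, the highest average of all probe sets, with an SD of 0 in both groups. A rise of it, or a fall from above that value, could therefore not be seen. Of the 4 myosin genes that mark fibre types, 2 were higher, 1 lower and 1 equal. *Myh1*, the fast type 2X myosin, averaged 17.58 in scramble and 18.17 in MYTHO-KD, a difference of 0.59 (standard error 0.188, adjusted p = 0.23). *Myh2*, the type 2A myosin, averaged 19.50 in scramble and 19.91 in MYTHO-KD, close to the top of the scale. The difference was 0.41 (standard error 0.152, unadjusted p = 0.0197, adjusted p = 0.315, limma). The paper reports the opposite direction in another muscle, the tibialis anterior. There, *Myh2* RNA measured by RT-qPCR was lower with MYTHO-KD at each time examined, and a smaller share of fibres was of type 2A. The reason for the opposite directions was not tested. *Myh4*, the type 2B myosin, stood at the top of the scale, 19.93 with an SD of 0 in both groups, so a change in either direction could be hidden. *Myh7*, the slow myosin, differed by -0.73 (standard error 1.257) with an SD of 3.26 in MYTHO-KD.

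Of 7 genes that respond to denervation, 4 were higher and 3 lower with a median of 0.16. At 2-fold with an unadjusted p under 0.05 (limma), 2 were higher, beside 0.86% of all probe sets, and none had an adjusted p under 0.05. *Runx1*, a transcription factor induced in denervated muscle, differed by 1.22 (adjusted p = 0.146) and *Chrna1*, a subunit of the acetylcholine receptor, by 1.07 (adjusted p = 0.141), whereas *Myog* differed by 0.21 and *Chrng* by -0.10. The part of fibre loss, fibre type or innervation in the difference of *Ostn* was not tested.

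*Npr1* and *Npr3* are also expressed by the endothelium. All 8 endothelial markers had a higher average in MYTHO-KD, from 0.18 to 0.75 with a median of 0.355, while *Npr1* and *Npr3* had lower averages. The mean of their log2 averages was 10.12 in scramble and 10.53 in MYTHO-KD. *Kdr*, a receptor for vascular endothelial growth factor, differed by 0.75 (standard error 0.218, adjusted p = 0.19, limma). *Eng*, which encodes endoglin, differed by 0.64 (adjusted p = 0.364, limma). Of 7 markers of smooth muscle and pericytes, where *Prkg1* is also active, 5 were higher and 2 lower, from -0.15 to 0.27. None of these 7 had an unadjusted p under 0.05 (limma).

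Adipocytes express *Npr1* and *Npr3* as well. All 6 adipocyte markers had a lower average in MYTHO-KD, from -0.78 for *Cfd* to -0.26 for *Plin1*, with SDs between 0.52 and 2.22. The mean of their log2 averages was 7.12 in scramble and 6.61 in MYTHO-KD, and none had an unadjusted p under 0.05 (limma). The part of endothelium or adipocytes in the differences of *Npr1* and *Npr3* was not tested.

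Fibroblasts and other connective tissue cells are a known site of *Npr2*, the receptor gene with a higher average in MYTHO-KD. All 6 fibroblast markers were higher in MYTHO-KD, with a median difference of 0.98. The mean of their log2 averages was 9.09 in scramble and 9.98 in MYTHO-KD. *Lum*, which encodes lumican of the extracellular matrix, rose by 1.49 (standard error 0.262, adjusted p = 0.0443, limma), and *Col3a1*, a collagen, by 1.43 (adjusted p = 0.102). All 6 macrophage markers were also higher, with a median difference of 1.13. The mean of their log2 averages was 7.58 in scramble and 8.84 in MYTHO-KD. *Cd68*, a lysosomal protein of macrophages, rose by 2.53 (standard error 0.351, adjusted p = 0.0182), and *Lyz2*, which encodes lysozyme, by 1.94 (adjusted p = 0.0277). With no moderation of the variances the adjusted p was 0.247 for *Lum*, 0.198 for *Cd68* and 0.21 for *Lyz2*. The part of these cells in the difference of *Npr2* was not tested.

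The heart is the main source of the peptides of *Nppa* and *Nppb*. Of 6 cardiac markers, 3 had a higher average in MYTHO-KD, 1 a lower one and 2 an equal one. The mean of their log2 averages was 6.84 in scramble and 6.9 in MYTHO-KD. The cardiac genes *Myh6*, *Tnni3* and *Myl7* averaged 5.75, 5.42 and 5.77 in scramble and 5.83, 5.55 and 5.77 in MYTHO-KD, all near the dim level of 5.715. *Myl4*, the atrial light chain that immature skeletal muscle also expresses, averaged 11.42 in both groups. *Tnnt2*, a troponin gene, differed by 0.78 (adjusted p = 0.234) and *Ryr2*, a calcium channel, by -0.65 (adjusted p = 0.253). Bone is the other known source of osteocrin. The 5 bone markers had scramble averages between 4.80 and 6.30, 4 of them were under the dim level, and they differed by -0.18 to 0.06. The 5 Schwann cell markers differed by -0.42 to 0.28 with a median of -0.17, and none had an unadjusted p under 0.05 (limma).

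**Figure D5:**
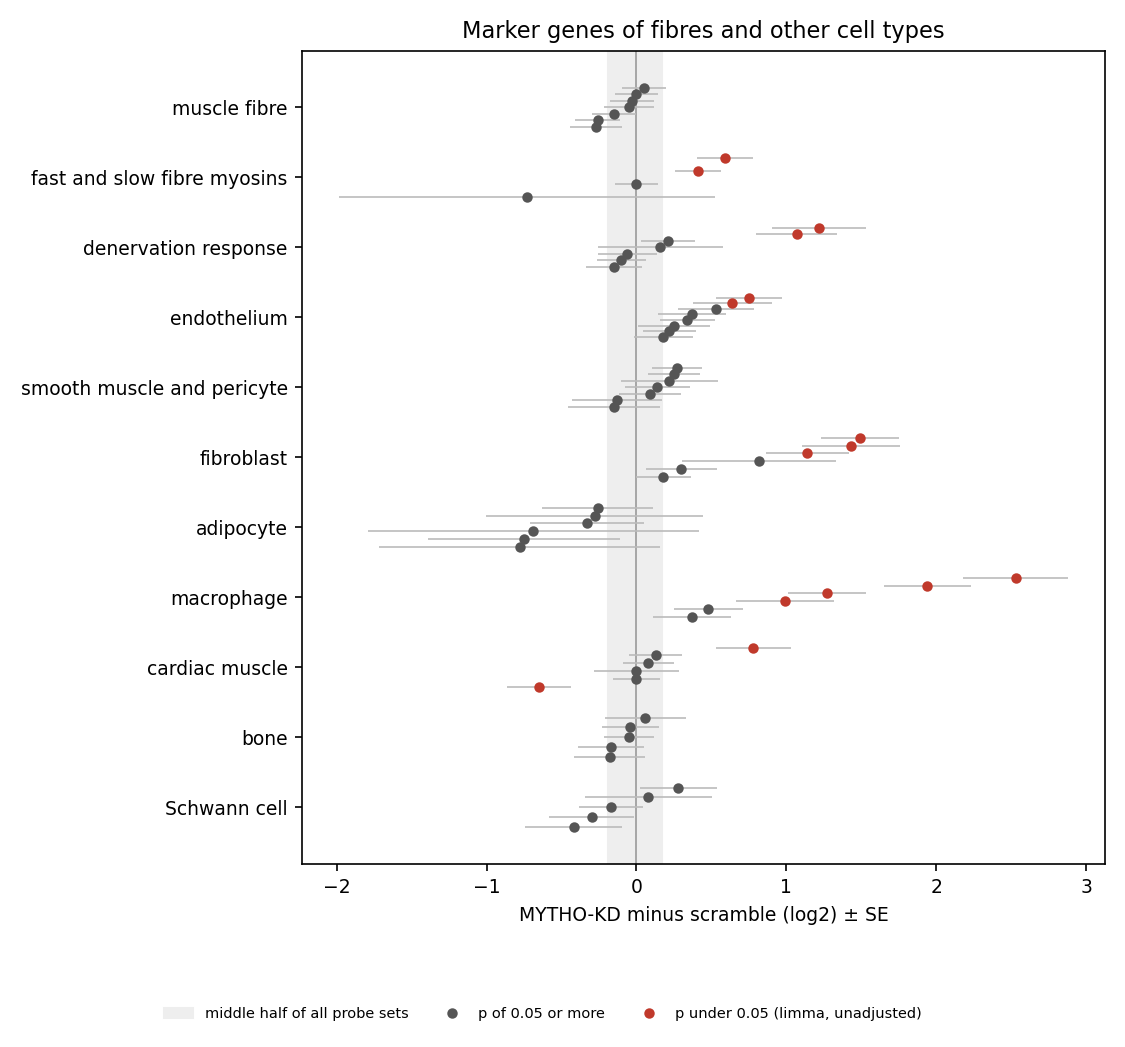
MYTHO-KD minus scramble differences (log2) of the marker genes in 11 lists, 1 point per gene with its standard error (bars), red where the unadjusted p is under 0.05 (limma) and with a grey band between the quartiles of all probe sets. The macrophage and fibroblast lists have medians of 1.13 and 0.98, and that of muscle fibre is -0.05.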

How the data were processed

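Total RNA of GAS muscle was hybridized to 8 Clariom S Mouse arrays, 4 per group. Per the paper's methods, signals were normalized by SST-RMA under the default settings of the Transcriptome Analysis Console, and the submitters' processing notes name RMA, Affymetrix Expression Console and mm10. SST-RMA widens the range of low signals, which affects fold changes. The authors deposited 1 table of 28 columns with, per probe set, the log2 average, SD and expression mark of each group. Its columns of the authors' own fold changes, p-values and false discovery rates were not used. There were 0 columns of single arrays. Which kind of average was deposited is not given in the sources used here. The test takes it as a plain mean, and how another average would change the p-values was not tested. Array groups came from the sample labels.

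Differences are MYTHO-KD minus scramble averages. Standard errors and two-sided p-values came from the moderated test of limma 3.58.1 in R 4.3.3, computed from averages and SDs: the group variances were pooled with 6 residual degrees of freedom and moderated by squeezeVar (prior SD 0.284, prior degrees of freedom 5.847). Adjustment was by Benjamini-Hochberg over all 22206 probe sets. They measure the spread between these muscles, and since nothing in the table ties a muscle to a mouse, legs of 1 mouse were treated as separate samples. In 21 probe sets an SD was 0 in a group. The procedure was tested on simulated data.

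The members, gene lists and markers were chosen with earlier results of these data known. Named were all members, the targeted gene, from each list the 2 genes with the largest difference and any past 2-fold or an adjusted p of 0.05, and the 5 probe sets nearest to *Ostn* in difference. Further genes, among them the neighbours of *Ostn* and *Nppa* and other members of the lists, were added after their values were seen. Where more than 1 probe set named a gene, the brightest was taken. The alternatives tried were unequal variances, no moderation, a trend plus robust fitting, leaving out the dimmest 30% of probe sets (means below 5.715), 1 probe set per symbol entry, the mean over the probe sets of a gene, centring and a threshold of 1.5-fold. Arrays have no read depth, and the number of arrays limits the precision.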

Additional observations from a re-analysis of the deposited data

How the results depend on the processing

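Centring on the median difference of all probe sets moved each of the 7 members by 0.01, and the mean over probe sets left them as they were, since each has 1. Over all probe sets, 787 were higher and 500 lower at 1.5-fold in place of 2-fold, against 191 and 57. At an adjusted p under 0.05, where 40 were higher and 21 lower, there were 0 and 2 with no moderation, 0 and 2 with unequal variances, and 115 and 74 with a trend and robust fitting. In the 7 pathway lists, 8 genes were higher at an unadjusted p under 0.05, against 5 with no moderation and 4 with unequal variances. At 2-fold, 2 were higher and 1 lower, against 6 and 3 at 1.5-fold, while the 1 lower (*Mstn*) became 0 with no moderation and 0 with unequal variances. At an adjusted p under 0.05, the lists had 0 in either direction, against 1 higher (*Il15*, adjusted p = 0.0455) and 1 lower (*Ide*, adjusted p = 0.0254) with the trend and robust fitting. With no moderation and with unequal variances, the adjusted p became 0.198 and 0.429 for *Cd68*, 0.247 and 0.429 for *Lum*, 0.21 and 0.401 for *Lyz2*, and 0.173 and 0.363 for *D230025D16Rik*, while *Col3a1* reached 0.0454 with the trend. The filter on dim probe sets, 1 probe set per symbol entry and centring kept these counts within 1.5 times. No paired analysis was possible because the table analysed holds group averages, and for the same reason leaving out each replicate in turn was not run. The causes of these shifts were not tested. Signals near 19.93 can hide a rise and, where both groups stand at that value, also a fall. Dim signals, those of *Nppa* and *Nppb* among them, can hide a fall.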
